A study of Drosophila melanogaster with 6 samples.

Results

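Ribosomal protein genes were chosen by name from the genes listed after BEAF or Pbro knockdown in Drosophila S2 cells. A gene was taken as cytoplasmic when its symbol, without the transcript suffix, was RpL, RpS or RpLP followed by a digit, and as mitochondrial when it began with mRpL or mRpS. RNA polymerase subunit genes whose symbols begin with RpI, RpII or RpIII were left out. The rule found 81 of 5524 listed genes, of which 44 were cytoplasmic and 37 were mitochondrial. By the letter in the symbol, the cytoplasmic genes comprised 25 of the large and 19 of the small subunit, and the mitochondrial genes 26 of the large and 11 of the small subunit.

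Cytoplasmic ribosomes translate the mRNAs made in the nucleus and are assembled in the nucleolus from rRNA and ribosomal proteins. Mitochondrial ribosomes translate the few mRNAs encoded by the mitochondrial genome, most of which specify subunits of the respiratory chain, but their proteins are encoded in the nucleus and imported. Genes of both classes are housekeeping genes, and many are short. BEAF is an insulator protein that usually binds close to gene starts, often those of housekeeping genes. The comparisons ask how Pol II on ribosomal protein genes responds when BEAF or Pbro is depleted. Which of the members BEAF binds was not examined here.

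Engaged RNA polymerase II (Pol II) was mapped by PRO-seq, which labels nascent RNA in isolated nuclei and sequences its end strand by strand. S2 cells, an embryonic cell line with features of blood cells, received 150 µg of double-stranded RNA at the start and again after 2.5 days, and were harvested after a further 2.5 days. The double-stranded RNA was a 668-bp product against BEAF, a 493-bp product against Pbro (polybromo, which belongs to the chromatin remodeler PBAP) or, as control, an 835-bp product against bacterial LacZ. There were 2 biological replicate libraries for each treatment and 6 in all, and both knockdowns share the LacZ libraries. The model is limited to transient RNAi in a single cell line. Of 10 names that mark the hemocyte lineage, which stand for 9 genes because Cg25C and Col4a1 are one gene, all were among the listed genes, and of 5 names of other cell types vas alone was, although the sheets give no expression levels.

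Each knockdown was set against LacZ RNAi in the promoter-proximal window, the stretch richest in reads around the transcription start site (TSS), and in the gene body. Values below are log2 fold changes of knockdown over LacZ RNAi in the authors' deposited table, with the adjusted p-values of the same table. The sheets call genes down or up where this p is under 0.05, and they give genes as unchanged where it is over 0.9. What lies between is not analysed here. For a member missing from a comparison, the value is not known here, only that it was not called. The table holds no value for a single library and no standard error, so neither the spread between replicates nor an interval for a difference can be given. An adjusted p over 0.9 does not show that a gene was unaffected. The polybromo gene was listed as unchanged after Pbro RNAi (-0.11 in the promoter, 0.03 in the gene body), but RNAi acts on mRNA, so nascent transcription does not check the knockdown.

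None of the 81 genes taken by the name rule was called in any of the 4 comparisons. The 81 genes had 238 entries, and every one stood among the unchanged genes, with adjusted p from 0.902 to 0.999996. After BEAF RNAi in the promoter, 0 of 24 cytoplasmic and 0 of 19 mitochondrial genes were called, against 4.87% of all 2137 listed genes. In the gene body after BEAF RNAi, 0 of 41 and 0 of 35 were called, against 1.75% of 4810. After Pbro RNAi, 0 of 27 cytoplasmic and 0 of 19 mitochondrial genes were called in the promoter, against 15.1% of 2510. In the gene body the counts were 0 of 41 and 0 of 32, against 6.54% of 4127. The background in the BEAF gene body is so low that a count of 0 among these genes lies close to it. The background in the Pbro promoter is the furthest from the members' count. These shares are over listed genes, which leave out adjusted p-values between 0.05 and 0.9. Each is therefore higher than the share over all genes that the study counted. No test of the members' share was made, because the lists were proposed with results of these data known.

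The values themselves were small. The entries of the 81 genes ran from -0.23 for mRpL4 in the Pbro promoter to 0.30 for mRpL22 in the BEAF gene body. The value of mRpL22 is a 1.23-fold difference from LacZ RNAi. The smallest called changes among all genes were 0.60 down and 0.56 up in the BEAF promoter, and 0.54 down and 0.58 up in the Pbro promoter. No member came near these sizes in a promoter. In the gene bodies, where called changes began at 0.23 down and 0.33 up after BEAF RNAi and at 0.24 down and 0.23 up after Pbro RNAi, mRpL22 was the member with the widest departure from 0, at an adjusted p of 0.9996. Because an unchanged gene has to have an adjusted p over 0.9, the narrow range of the members is in part set by the sheets.

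A larger share of ribosomal protein genes than of all genes was listed in each comparison. In the BEAF promoter 54.5% of the 44 cytoplasmic and 51.4% of the 37 mitochondrial genes were listed, against 38.7% of all 5524. In the BEAF gene body the shares were 93.2% of cytoplasmic, 94.6% of mitochondrial and 87.0% of all genes. In the Pbro promoter they were 61.4%, 51.4% and 45.4%, and in the Pbro gene body 93.2%, 86.5% and 74.7%, in the same order. In all 4 comparisons 14 cytoplasmic genes (31.8%) and 11 mitochondrial genes (29.7%) were listed, against 866 of all genes (15.7%). The gene body held most of the entries, since 38 cytoplasmic and 32 mitochondrial genes were listed in both gene bodies, whereas 17 and 13 were listed in both promoters. A further 10 cytoplasmic and 12 mitochondrial genes were listed in no promoter, among them RpLP0, RpL7A, RpS23, mRpL2 and mRpS5.

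The medians of both classes lay within 0.08 of 0 in every comparison. In the BEAF promoter the cytoplasmic genes had a median of 0.02 (SD over genes 0.070, n = 24) and the mitochondrial genes 0.004 (SD 0.084, n = 19), against -0.002 for all listed genes. In the BEAF gene body the medians were 0.02 for cytoplasmic genes (SD 0.086, n = 41) and 0.04 for mitochondrial genes (SD 0.114, n = 35), against 0.01 for all listed genes. The SD here describes the spread over genes and is no replicate error.

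In the Pbro promoter the cytoplasmic genes had a median of -0.07 (SD 0.093, n = 27), and 18 of the 27 were below 0. Without the copies of duplicated pairs, described further on, the cytoplasmic median was -0.0307, against a mitochondrial median of -0.0331, and the cytoplasmic median was then not the lower one. The mitochondrial median was -0.03 (SD 0.131, n = 19), with 11 of 19 below 0. The median of all listed genes, called ones included, was -0.01, with 1316 of 2510 below 0. Unchanged genes alone, the set that holds every member, had a median of 0.01, with 984 of 2131 below 0. In the Pbro gene body the medians were -0.02 for cytoplasmic genes (SD 0.068, n = 41) and 0.003 for mitochondrial genes (SD 0.078, n = 32). All listed genes had 0.01 there, and unchanged genes alone 0.02. The cytoplasmic median minus the mitochondrial median came to 0.02 in the BEAF promoter, -0.01 in the BEAF gene body, -0.04 in the Pbro promoter and -0.02 in the Pbro gene body. None of these differences was tested.

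**Figure D1:**
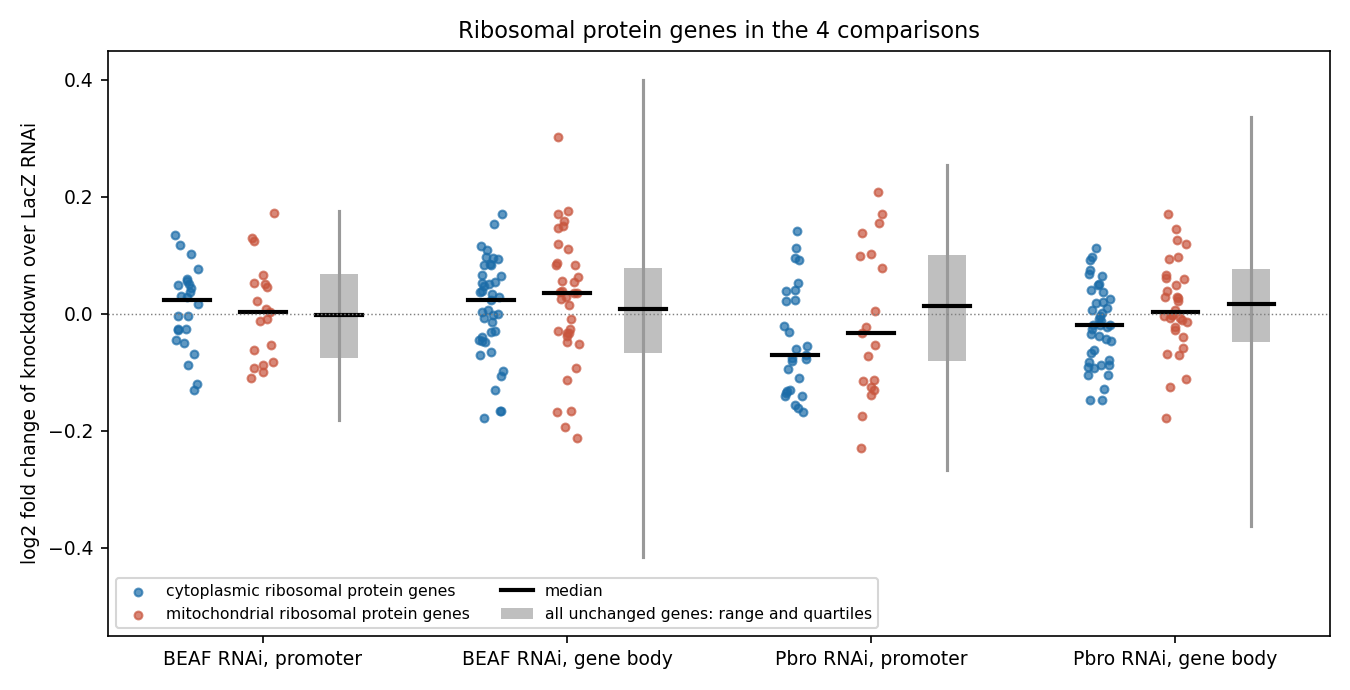
The log2 fold change of knockdown over LacZ RNAi (y axis) is plotted for each cytoplasmic gene (blue) and each mitochondrial gene (red) in the 4 comparisons (x axis), beside the range (line) and quartiles (grey bar) of all unchanged genes, with medians in black. All points lie between -0.23 and 0.30, and the cytoplasmic median in the Pbro promoter is -0.07, or -0.0307 without the copies of duplicated pairs, against -0.0331 for mitochondrial genes.

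Among proteins of the large cytoplasmic subunit, RpL19, which contributes to a bridge between the subunits, had the widest spread of values, with 0.14 in the BEAF promoter, 0.05 in the BEAF gene body, -0.16 in the Pbro promoter and 0.04 in the Pbro gene body. RpL5, which carries 5S rRNA into the ribosome, had 0.06, 0.03, -0.13 and 0.02 in the same order. RpL40, made as a fusion to ubiquitin, had -0.05, 0.02, -0.11 and -0.04. In all 3 genes the lowest value was that of the Pbro promoter, where the cytoplasmic class also had its lowest median (-0.07).

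RpL4, which lines the exit tunnel for the nascent chain, had 0.05 in the BEAF gene body, -0.16 in the Pbro promoter and -0.07 in the Pbro gene body. RpL12, at the base of the stalk that binds translation factors, had -0.003 in the BEAF promoter, -0.05 in the BEAF gene body, 0.02 in the Pbro promoter and -0.15 in the Pbro gene body, the lowest value of a cytoplasmic gene there. RpLP0, which anchors the same stalk, was listed in gene bodies alone, with 0.08 after BEAF RNAi and -0.03 after Pbro RNAi. The pair of stalk proteins thus had a lower gene body value after Pbro RNAi than after BEAF RNAi. The cytoplasmic class had the same order, with gene body medians of 0.02 after BEAF RNAi and -0.02 after Pbro RNAi. The difference was not tested.

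RpL8, close to the peptidyl transferase centre, had 0.10 in the promoter with 0.08 in the gene body of the BEAF knockdown, and -0.01 in the gene body after Pbro RNAi. RpL23 had -0.12 in the BEAF promoter and -0.13 in the Pbro promoter, with 0.04 and -0.02 in the gene bodies. RpL24 had the highest cytoplasmic value in the BEAF gene body (0.17, adjusted p = 0.948), followed by RpL26 (0.15, adjusted p = 0.9996). Both had lower values in a promoter, with -0.04 for RpL24 after BEAF RNAi and -0.14 for RpL26 after Pbro RNAi.

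Among proteins of the small cytoplasmic subunit, RpS6, the substrate of S6 kinase, had the highest cytoplasmic value of the Pbro promoter (0.14, adjusted p = 0.925) and 0.10 in the Pbro gene body, against -0.03 in the BEAF promoter and -0.01 in the BEAF gene body. RpS3, which lies at the mRNA entry channel, had 0.02 and 0.04 in the promoter and gene body after BEAF RNAi, and 0.11 and -0.03 after Pbro RNAi. RpS27A, the other ubiquitin fusion, had 0.05 in the BEAF gene body, -0.09 in the Pbro promoter and 0.05 in the Pbro gene body. The ubiquitin fusions RpL40 and RpS27A were thus both below 0 in the Pbro promoter, as were 18 of the 27 cytoplasmic genes listed there.

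RpS23, a protein of the decoding centre, was listed in gene bodies alone, with 0.09 after BEAF RNAi and -0.01 after Pbro RNAi. RpS24 had positive values after BEAF RNAi (promoter 0.06, gene body 0.10) and negative values after Pbro RNAi (-0.05 and -0.09). RpS27 was below 0 wherever it was listed, with -0.09 in the BEAF promoter, -0.11 in the BEAF gene body and -0.09 in the Pbro gene body. RpS13 had the highest cytoplasmic value of the Pbro gene body (0.11, adjusted p = 0.996).

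By subunit, the cytoplasmic genes had medians of 0.04 (large, n = 13) and -0.003 (small, n = 11) in the BEAF promoter and 0.03 (n = 24) and 0.0003 (n = 17) in the BEAF gene body. After Pbro RNAi both subunits were below 0, with -0.08 (large, n = 15) and -0.04 (small, n = 12) in the promoter and -0.02 for each in the gene body (n = 22 and n = 19). The ranges of the subunits overlapped in all 4 comparisons.

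Among mitochondrial genes of the large subunit, mRpL22, a homologue of the bacterial protein at the exit tunnel, had -0.08 in the BEAF promoter, 0.30 in the BEAF gene body and 0.07 in the Pbro gene body. Its gene body value after BEAF RNAi stood well apart from the next, that of mRpL50 (0.18). At the other end, mRpL2, a homologue of the protein beside the peptidyl transferase centre, had -0.21 in the BEAF gene body and -0.11 in the Pbro gene body. mRpL4 was below 0 wherever it was listed, with -0.17 in the BEAF gene body, -0.23 in the Pbro promoter and -0.07 in the Pbro gene body.

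mRpL44 was above 0 in every comparison, with 0.17 in the BEAF promoter, 0.11 in the BEAF gene body, 0.08 in the Pbro promoter and 0.15 in the Pbro gene body. mRpL21 likewise had 0.12, 0.09, 0.10 and 0.03. mRpL45, whose human counterpart helps to dock the ribosome at the inner membrane, had -0.05 and -0.04 in the gene bodies after BEAF and Pbro RNAi. mRpL9 had the highest mitochondrial value in the Pbro gene body (0.17, adjusted p = 0.968), but -0.05 in the BEAF gene body and -0.07 in the Pbro promoter.

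Among mitochondrial genes of the small subunit, mRpS9 had the widest spread of all members listed throughout, with -0.05 in the BEAF promoter, -0.19 in the BEAF gene body, 0.16 in the Pbro promoter and -0.12 in the Pbro gene body. mRpS2 had -0.09, 0.15, -0.13 and 0.13 in the same order, so its gene body values were above 0 and its promoter values below 0 after both knockdowns. mRpS5 was listed in gene bodies alone, with -0.17 after BEAF RNAi and -0.18 after Pbro RNAi, the lowest mitochondrial value of the Pbro gene body. Of the genes listed throughout, mRpS22 varied least, between -0.03 and 0.005.

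mRpS29, whose human counterpart DAP3 binds GTP, had -0.09 in the BEAF gene body, 0.14 in the Pbro promoter and 0.09 in the Pbro gene body. mRpS30 had the highest promoter value after Pbro RNAi (0.21, adjusted p = 0.906), and 0.05 and 0.12 in the promoter and gene body after BEAF RNAi. The widest gap between mitochondrial subunits was in the Pbro promoter, with a median of -0.11 in the large (n = 11, from -0.23 to 0.17) and 0.05 in the small subunit (n = 8, from -0.13 to 0.21). Their values overlapped, and the gap was not tested. mRpS30 is named for the small subunit, but its human counterpart sits in the large one. With mRpS30 counted there, a setting added after the values were seen, the medians were -0.09 (n = 12) and 0.005 (n = 7).

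**Figure D2:**
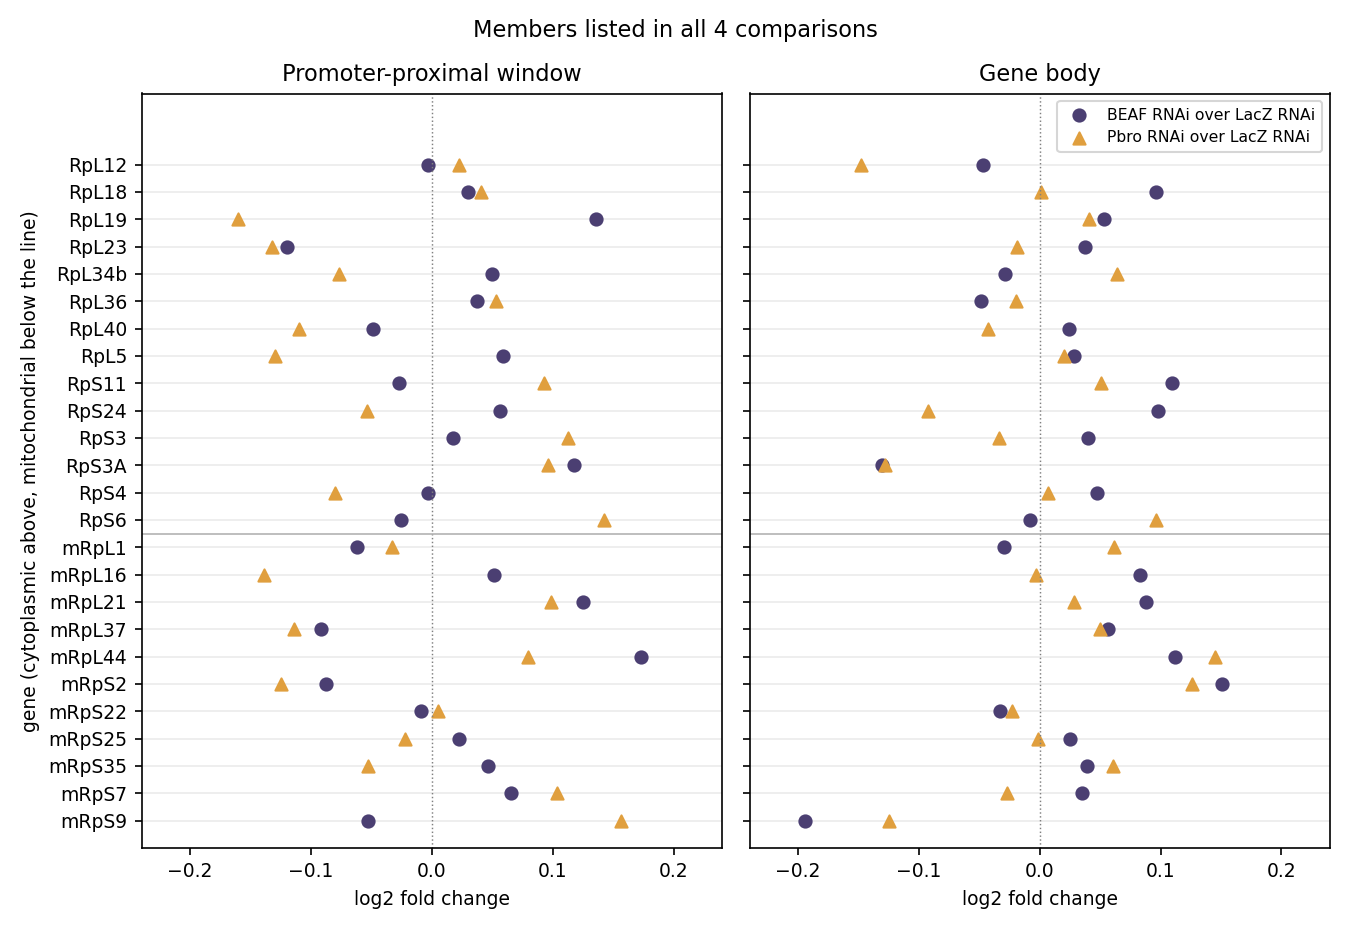
Each row is 1 of the 25 genes listed in all 4 comparisons, 14 cytoplasmic above the line and 11 mitochondrial below it, with its log2 fold change (x axis) in the promoter-proximal window (left) and the gene body (right) after BEAF RNAi (circles) and Pbro RNAi (triangles), each over LacZ RNAi. RpL18, mRpL21 and mRpL44 lie above 0 throughout, and mRpS9 spans the widest range, 0.35.

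Of the 25 genes listed in all 4 comparisons, RpL18, mRpL21 and mRpL44 were above 0 in each, and 0 were below 0 in each. The distance between a gene's lowest and highest value had a median of 0.157 in the 14 cytoplasmic genes (0.095 to 0.296) and 0.124 in the 11 mitochondrial genes (0.038 to 0.350). RpL18 had 0.03 in the BEAF promoter, 0.10 in the BEAF gene body, 0.04 in the Pbro promoter and 0.001 in the Pbro gene body. Because both knockdowns were set against the same LacZ libraries, shared values in LacZ RNAi move them together, and no correlation between the knockdowns is given.

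After BEAF RNAi, 11 of 22 cytoplasmic and 4 of 17 mitochondrial genes listed in both regions had opposite signs in promoter and gene body, against 47.8% of all genes listed in both. After Pbro RNAi the counts were 12 of 24 and 9 of 17, against 45.6% of all such genes. The promoter value minus the gene body value had a median of -0.0001 in cytoplasmic genes and -0.03 in mitochondrial genes after BEAF RNAi, against -0.02 in all 1817 genes listed in both regions. After Pbro RNAi the medians were -0.06 in cytoplasmic genes and -0.09 in mitochondrial genes, against -0.01 in all 1781 genes. These sets of all genes include called genes, whereas no member was called. The SD of this difference over genes was 0.119 in the cytoplasmic class and 0.150 in the mitochondrial class after Pbro RNAi, and the medians were not tested against that of all genes.

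RpS3A was above 0 in the promoter and below 0 in the gene body after both knockdowns. After BEAF RNAi its promoter had 0.12 and its gene body -0.13, and after Pbro RNAi 0.10 and -0.13. It is the sole member on chromosome 4. The opposite arrangement was widest for mRpL22 after BEAF RNAi, whose promoter minus gene body difference was -0.38, and for mRpS2 after Pbro RNAi, at -0.25. mRpS9 had the highest difference after Pbro RNAi, 0.28. The LacZ libraries are common to both knockdowns, so the agreement of RpS3A between them is not an independent repeat.

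**Figure D3:**
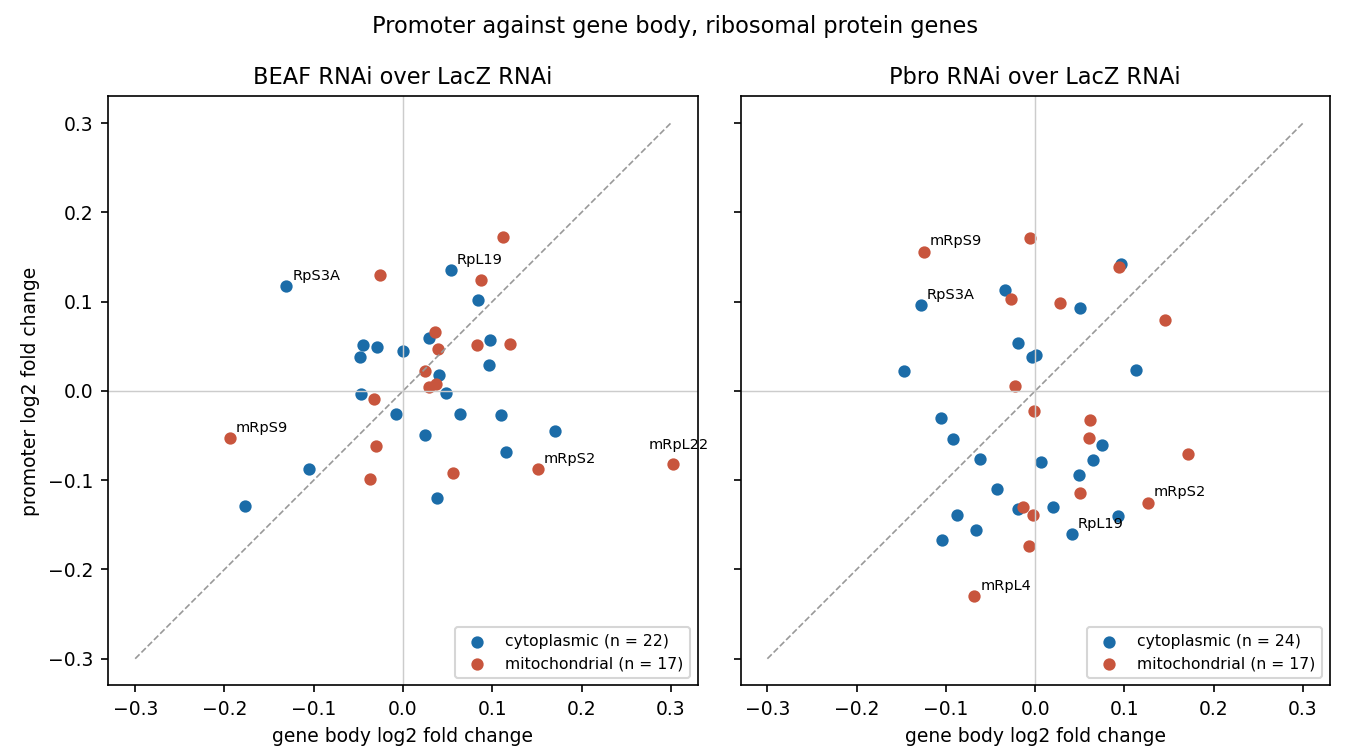
The promoter log2 fold change (y axis) is plotted against the gene body log2 fold change (x axis) for each cytoplasmic gene (blue) and mitochondrial gene (red) listed in both regions, after BEAF RNAi (left) and Pbro RNAi (right), each over LacZ RNAi, with a dashed line of equal values. RpS3A lies at the upper left in both panels, and mRpL22 at the far right after BEAF RNAi, with 0.30 in the gene body and -0.08 in the promoter.

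The members were short genes, which sets how much of each was counted as gene body. The median length was 1060 bp for cytoplasmic genes (810 to 2110 bp) and 1050 bp for mitochondrial genes (804 to 1959 bp), against 2516.5 bp for all listed genes. After the 400 bp that the gene body leaves out at its ends, medians of 660 bp and 650 bp remained, against 2116.5 bp for all listed genes. Of the members, 16 cytoplasmic genes (36.4%) and 17 mitochondrial genes (45.9%) were shorter than 1000 bp, against 6.43% of all listed genes. The part of length in the values was not tested.

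By position in the dm3 genome, 11 of 44 cytoplasmic genes (25.0%) and 6 of 37 mitochondrial genes (16.2%) were X-linked, against 17.2% of all listed genes. In the BEAF gene body the 9 X-linked cytoplasmic genes listed had a median of -0.05, against 0.04 for the 32 on other chromosomes. The 3 lowest cytoplasmic values in that comparison, RpS14a (-0.18), RpS5a (-0.17) and RpS15Aa (-0.17), were all X-linked. By their symbols all 3 are also copies of duplicated pairs, described below, whose values are uncertain. The X-linked mitochondrial genes had the reverse position, with a median of 0.14 (n = 6), against 0.02 for the 29 on other chromosomes. All 6 were above 0, namely mRpL22 (0.30), mRpL38 (0.17), mRpL3 (0.16), mRpS30 (0.12), mRpL16 (0.08) and mRpS25 (0.03). Over all listed genes the median of this comparison was -0.001 for 842 X-linked genes and 0.01 for the others. This split was singled out after the values were seen, was not tested, and holds adjusted p-values over 0.9 throughout. In the Pbro gene body the medians were -0.04 for X-linked (n = 10) and -0.01 for other cytoplasmic genes (n = 31), and -0.002 for X-linked (n = 4) and 0.01 for other mitochondrial genes (n = 28).

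**Figure D4:**
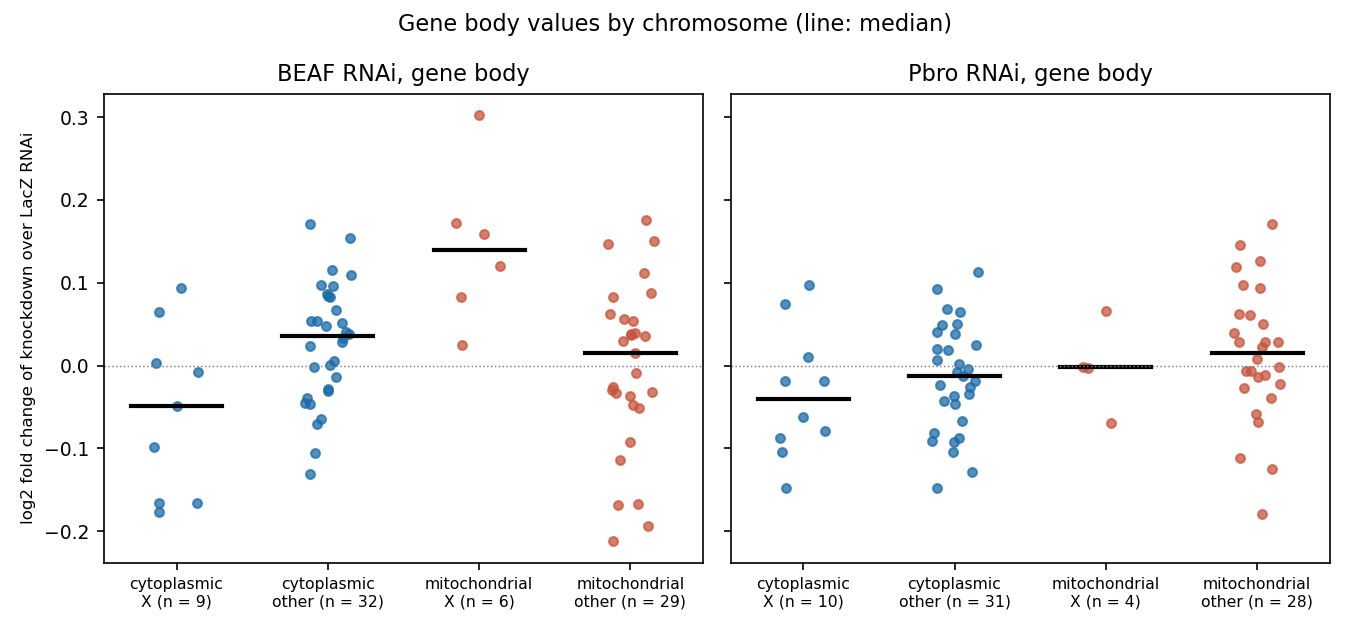
Gene body log2 fold changes over LacZ RNAi (y axis) of cytoplasmic genes (blue) and mitochondrial genes (red) are split into X-linked genes and genes on other chromosomes (x axis), after BEAF RNAi (left) and Pbro RNAi (right), with medians as black lines. After BEAF RNAi the 6 X-linked mitochondrial genes lie above 0 with a median of 0.14, and the X-linked cytoplasmic genes have a median of -0.05. Several of these cytoplasmic genes are copies of duplicated pairs.

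Several X-linked cytoplasmic genes belong to pairs of closely related copies. Short reads shared by both copies could be lost, so the values of such genes are uncertain. By a final a or b in the symbol alone, 9 members were taken as such copies. Of these, RpL34a and RpL34b lie on 3R, and RpL37a, RpS10b, RpS14a, RpS14b, RpS15Aa, RpS19a and RpS5a on X. RpS14a and RpS14b lie 223 bp apart on the same strand of X, at chrX:7827780-7828713 and chrX:7828937-7829832. RpS14a had -0.13 in the BEAF promoter, -0.18 in the BEAF gene body and -0.15 in the Pbro gene body, whereas RpS14b was listed in the Pbro gene body alone, with -0.02. In the Pbro promoter all 6 listed copies were below 0, from -0.17 for RpS15Aa to -0.06 for RpS19a, with a median of -0.11. Their medians were -0.06 in the BEAF gene body (n = 7), -0.07 in the Pbro gene body (n = 8) and 0.03 in the BEAF promoter (n = 3). RpL37A on 2L and RpL37a on X are different genes, whose gene body values after BEAF RNAi were 0.07 and 0.09.

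Some members share their upstream region with a gene on the opposite strand, cytoplasmic genes at about the share of all listed genes. A listed gene started within 500 bp in the divergent direction at 10 of 44 cytoplasmic (22.7%) and 14 of 37 mitochondrial genes (37.8%), against 22.6% of all listed genes. At some of these pairs the partner was called in a comparison and the ribosomal protein gene was not. CG10778, whose start lies 445 bp from that of RpS14a, rose in the BEAF promoter (0.68), where RpS14a had -0.13. Tudor-SN, a nuclease gene 412 bp from mRpL17, fell in the BEAF gene body (-0.52), where mRpL17 was not listed, and mRpL17 had -0.11 in the BEAF promoter.

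The start of mRpL44 lies 342 bp from that of Snr1, a subunit common to the PBAP and BAP complexes. Snr1 had 0.08 in the BEAF gene body, 0.16 in the Pbro promoter and 0.08 in the Pbro gene body, where mRpL44 had 0.11, 0.08 and 0.15. Both genes of this pair were above 0 wherever listed. RpL36 diverges from l(1)1Bi, which encodes the nucleolar protein Mybbp1A, at a distance of 379 bp. In the BEAF gene body RpL36 had -0.05 and l(1)1Bi 0.15, and in the Pbro gene body they had -0.02 and -0.05. Members also neighbour one another across classes, with RpL18 and mRpL50 1730 bp apart, RpL35A and mRpL44 2370 bp apart, and mRpS22 and RpL4 4580 bp apart.

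Other genes of the translation pathway gave at most 1 call per list and comparison, and the shares of all listed genes called given above (4.87%, 1.75%, 15.1% and 6.54%) are their background. Of 23 translation factor genes in the sheets, 1 of 14 listed was called in the BEAF promoter, 0 of 21 in the BEAF gene body, 1 of 17 in the Pbro promoter and 1 of 22 in the Pbro gene body. Thor, the 4E-BP that inhibits cap-dependent initiation, rose in the promoter after BEAF RNAi (0.77, adjusted p = 0.00141) and after Pbro RNAi (0.65, adjusted p = 0.0291). Translation factor eIF5B, a GTPase that joins the ribosomal subunits, fell in the Pbro gene body (-0.24, adjusted p = 0.0444). Of 23 genes for ribosome biogenesis and Pol I, 0 of 15 were called in the BEAF promoter, 1 of 20 in the BEAF gene body, 0 of 11 in the Pbro promoter and 0 of 20 in the Pbro gene body. With 1 call or none in lists of this size, no share can be told from the background. The one called was Surf6, a nucleolar protein gene, which rose in the BEAF gene body (0.38, adjusted p = 0.0076).

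Mitochondrial translation genes that the name rule does not take were few, and 0 were called of 1 listed in the BEAF promoter, 5 in the BEAF gene body and 5 in the Pbro gene body, too few to set against the background of 4.87%, 1.75% and 6.54%. All 5 had values below 0 in the Pbro gene body, from -0.13 to -0.09, among them tko, a mitochondrial small subunit protein, at -0.09. Their median in the BEAF gene body was -0.10 (n = 5), where the 35 mitochondrial members had 0.04. In the Pbro gene body it was -0.11, where the 32 mitochondrial members had 0.003.

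Some ribosomal protein and ribosomal-protein-like genes carry other symbols in the sheets and are missed by the name rule. By current symbols from the reference table these were sop (RpS2), Qm (RpL10), oho23B (RpS21), CG5317 (RpL7-like) and CG6764 (RpL24-like). The sop gene, at chr2L:9896265-9897517, was the one gene called among the members and these 5. It fell in the BEAF gene body (-0.29, adjusted p = 0.0239) and had -0.01 in the Pbro gene body. Qm was below 0 in all 4 comparisons, with -0.10 in the BEAF promoter, -0.11 in the BEAF gene body, -0.14 in the Pbro promoter and -0.06 in the Pbro gene body, and was called in none. Rack1, a protein of the small subunit that scaffolds signalling factors, was likewise below 0 in all 4, from -0.10 to -0.03. By current symbol the name rule finds 49 genes of the cytoplasmic and 37 of the mitochondrial form in the sheets, including the ribosomal-protein-like genes but neither tko nor Rack1.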

How the data were processed

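Nuclei of S2 cells after BEAF, Pbro or LacZ RNAi were assayed by PRO-seq, with 2 libraries for each treatment. Per the study's methods, reads were aligned to dm3 with Bowtie and counted for nonoverlapping genes in promoter-proximal windows and gene bodies. Per the authors' processing notes the tools were Bowtie and DESeq2; versions are not given in the sources used here. The log2 fold changes are those the authors computed with DESeq2 and deposited in 12 sheets. The adjusted p-values are also the authors' deposited values, from 2 libraries against 2. The down and up sheets hold adjusted p under 0.05 and the unchanged sheets over 0.9, as checked on each sheet. These columns are the authors' own comparisons and the one measurement in the sheets, so no model was fitted and no test was made here. Reads and depth per library were not used. How each region was scaled is not stated, and a change common to all genes may be removed by scaling. The paper reports numbers of reads mapped uniquely to the genome, so short reads shared by closely related copies could be lost.

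Members were found by symbol and described with counts, medians and SDs over genes in Python 3.11.15 with pandas 2.3.3 and numpy 2.4.6, on code checked on simulated tables. Genes named are the 4 lowest and 4 highest of each class and comparison, those listed in all 4 comparisons, called pathway genes, and members chosen for their role or position after their values were seen. The members and lists were chosen with earlier results of these data known. Pathway genes were matched by symbol or synonym, and wrongly placed names (CG4849, eIF4AIII, pes and bor) were dropped. The Release 6 table of gene names matched all 81 members and was used for names alone. Coordinates are dm3, counted from 1. Alternatives were a stricter adjusted p of 0.01, a minimum change of 1.5-fold, members by current symbol, the mean, and leaving out duplicated copies or genes under 1000 bp. No promoter sequences were used. Some results for single genes are not reported here.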

Additional observations from a re-analysis of the deposited data

How the results depend on the processing

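With members taken by current symbol, 1 cytoplasmic gene was called down in the BEAF gene body (sop, RpS2), against 0 by the name rule. A stricter threshold, a minimum fold or fewer members can only leave a count of called members at 0, so these settings say nothing about its stability. The widest move of a class median log2 fold change, 0.040, was that of the cytoplasmic genes in the Pbro promoter, which was -0.0307 without the copies of duplicated pairs, against -0.0708 with them, and so no longer below the mitochondrial -0.0331. It was -0.0449 as a mean. The mitochondrial median of the Pbro promoter was 0.005 without genes under 1000 bp, against -0.0331 with them, and the mean was -0.0128. The cytoplasmic median of promoter minus gene body after BEAF RNAi was 0.02 without genes under 1000 bp, against -0.0001 with them. Medians over unchanged members alone are the same by construction, since every member is unchanged. The cause was not tested. No paired analysis was possible because the sheets carry no values per library, and for the same reason no library could be left out. The promoter motif search was not run, since no promoter sequence was used. Depth per library was not used and no standard error is given, so the precision of a value is not known. An adjusted p does not measure it.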
